A study of Homo sapiens with 6 samples.

Results

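The genes described here are *EPHA2*, *EFNB2* and *EFNA4*, 1 receptor and 2 ligands of the ephrin system, measured in HaCaT cells, a keratinocyte line from adult human skin that grows without limit. They were selected by gene symbol from the authors' deposited table of genes that differed between cells with and without M1 protein. Each had 1 probe set, so the 3 genes make up 3 of the 497 probe sets of that table. They are also 3 of the 22119 probe sets with deposited values, which are meant below by all probe sets. M1 protein coats the surface of Streptococcus pyogenes, a bacterium of skin and throat infections, and is one of its virulence factors. The control group was untreated HaCaT cells, and the M1 group was HaCaT cells kept for 6 h with M1 protein at 5 µg/ml; both were grown without serum and without calcium, a condition that holds keratinocytes back from differentiating. Each group had 3 samples, labelled as biological replicates of 1 cell line, and these 6 had been taken from 12 whose RNA integrity had been examined. Whether separate cultures or days lay behind the replicates is not stated in the labels.

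Ephrins are ligands held on the cell surface, and Eph receptors are receptor tyrosine kinases on the neighbouring cell, so the pair signals mainly where cells touch. Signals can run both ways, forward into the cell with the receptor and in reverse into the cell with the ephrin, and they steer cell adhesion, repulsion and migration. A-type ephrins hang on a lipid anchor and bind mainly EphA receptors, whereas B-type ephrins span the membrane and bind mainly EphB receptors. In the epidermis EPHA2 is the best known Eph receptor of keratinocytes, with ephrin-A1 as its main ligand.

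The promoters of the 3 genes are shown first, as the stretches in which shared or unshared regulatory motifs can be looked for. Each sequence is the 250 bases before the annotated start on the gene's own strand, 5′ to 3′, from RefSeq (build GRCh38.p14), and all 3 genes were found in that table. The windows are chr1:16156070-16156319 on the minus strand for *EPHA2*, chr13:106535663-106535912 on the minus strand for *EFNB2* and chr1:155063490-155063739 on the plus strand for *EFNA4*. Capitals mark the GC box (GGGCGG, or its reverse complement) and the cyclic AMP response element (CRE, TGACGTCA).
EPHA2: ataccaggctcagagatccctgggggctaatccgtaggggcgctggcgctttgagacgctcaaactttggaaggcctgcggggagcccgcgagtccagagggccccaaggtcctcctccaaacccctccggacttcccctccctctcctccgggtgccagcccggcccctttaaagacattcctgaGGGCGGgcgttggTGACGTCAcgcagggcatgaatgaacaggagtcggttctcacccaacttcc
EFNB2: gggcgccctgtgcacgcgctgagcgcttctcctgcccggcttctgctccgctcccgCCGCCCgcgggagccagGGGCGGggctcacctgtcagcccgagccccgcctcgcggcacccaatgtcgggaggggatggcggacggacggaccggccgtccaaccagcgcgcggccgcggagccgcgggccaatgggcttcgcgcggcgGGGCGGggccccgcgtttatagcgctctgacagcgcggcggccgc
EFNA4: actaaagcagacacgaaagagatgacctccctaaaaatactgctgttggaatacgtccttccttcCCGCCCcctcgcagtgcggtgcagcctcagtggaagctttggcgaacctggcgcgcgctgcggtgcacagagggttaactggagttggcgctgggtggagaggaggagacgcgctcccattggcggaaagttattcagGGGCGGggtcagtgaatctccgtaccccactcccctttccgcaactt

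All 3 promoters held at least 1 GC box, the site bound by SP and KLF factors, with 1 match for *EPHA2*, 3 for *EFNB2* and 2 for *EFNA4*. A GC box is common: 42.6% of the 35116 RefSeq windows of this length, and 53.7% of the 22199 windows of protein-coding genes, held one. The CRE, to which CREB and ATF factors can bind, was found in the *EPHA2* window alone of the 3, from 51 to 44 bases before the start, downstream of that promoter's GC box. Of all windows 1.65% held a CRE, and of the windows of protein-coding genes 2.01% did. None of the 3 windows held an AP-1 site (TGANTCA), an E-box (CACGTG), an EGR site (GCGNGGGCG), an NF-kappaB site or a serum response element, searched on both strands. Of all windows 6.57% held the AP-1 site, 6.34% the E-box, 8.41% the EGR site, 9.96% the NF-kappaB site and 1.16% the serum response element. No match was shared with another motif of the search. The *EFNB2* window was the richest in G and C, at 78.4%, against 63.2% for *EPHA2* and 58.4% for *EFNA4*. A match is a run of letters and not a measured binding site, and the letters that are absent say nothing on the factor.

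**Figure D1:**
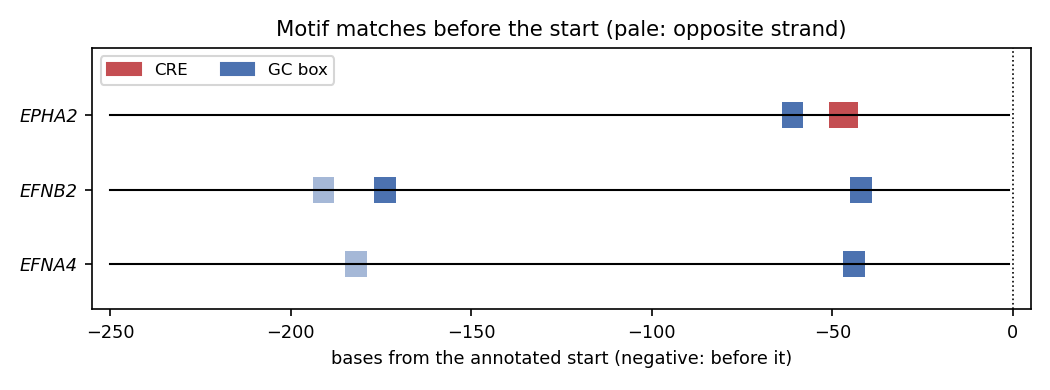
Positions of GC boxes (blue) and the CRE (red) in the 250 bases before the annotated start of each gene; the horizontal axis is the distance from the start in bases, and pale bars lie on the opposite strand. Each gene has a GC box between 64 and 40 bases before its start, and *EPHA2* has the CRE from 51 to 44.

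The 3 genes were chosen from a table that the authors had selected on the comparison of M1 protein with control, so their levels in the 2 groups are given as a description, with no test. Values are log2 signals after RMA, in which 1 unit is a doubling, and signals of different genes are not compared, because probes differ in brightness. The receptor *EPHA2* and the transmembrane ligand *EFNB2* were higher with M1 protein, and the lipid-anchored ligand *EFNA4* was lower. Each array was hybridised with RNA of a whole culture, so a change in every cell and a change in the number of cells that hold the transcript cannot be told apart.

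*EPHA2* encodes a receptor tyrosine kinase that binds A-type ephrins. Its log2 signals were 9.00, 9.18 and 9.20 in control replicates 1, 2 and 3, and 11.40, 11.62 and 11.34 in M1 replicates 1, 2 and 3. All M1 arrays lay above all control arrays, with 2.14 between the groups and at most 0.27 within one. The control mean was 9.13 ± 0.11 and the M1 mean 11.45 ± 0.14 (SD, n = 3 each), a difference of 2.32 ± 0.09 (SE) and a fold of 5.01. On the linear scale the mean signal was 560 in control and 2811 with M1 protein. Among the 303 higher probe sets of the table it had the 37th largest difference, and among all 22119 probe sets the 42nd.

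*EFNB2* encodes ephrin-B2, a ligand of EphB receptors, best known from the arterial side of growing blood vessels, where its receptor EPHB4 marks the veins. Its log2 signals were 8.22, 8.46 and 8.36 in control replicates 1, 2 and 3, and 9.45, 9.36 and 9.53 in M1 replicates 1, 2 and 3. Here too the groups did not overlap, with 0.90 between them, and the widest group, the controls, spanned 0.25. The means were 8.35 ± 0.12 and 9.45 ± 0.08 (SD, n = 3 each), a difference of 1.10 ± 0.08 (SE) and a fold of 2.14. The difference ranked 193rd among the 303 higher probe sets of the table and 277th among all probe sets.

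*EFNA4* encodes ephrin-A4, a lipid-anchored ligand of EphA receptors. Its log2 signals were 8.98, 8.92 and 8.90 in control replicates 1, 2 and 3, and 8.27, 8.14 and 8.22 in M1 replicates 1, 2 and 3. All M1 arrays lay below all control arrays, 0.63 apart, and the groups spanned 0.08 and 0.13. The control mean was 8.93 ± 0.04 and the M1 mean 8.21 ± 0.07 (SD, n = 3 each), a difference of -0.72 ± 0.06 (SE), or 1.65-fold lower. It ranked 185th in size among the 194 lower probe sets of the table and 731st among all probe sets, close to the edge of what the authors listed.

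**Figure D2:**
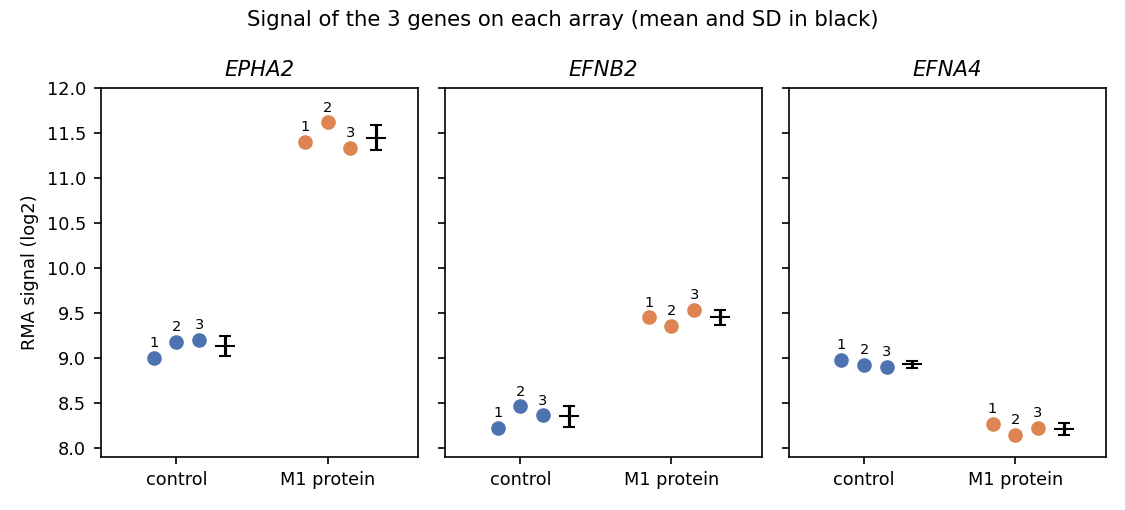
Log2 RMA signal of each gene on the 3 control arrays (blue) and the 3 M1 arrays (orange), numbered by replicate, with the mean and SD in black. The groups do not overlap for any of the 3 genes, which were selected on this contrast, nor for 46.5% of all probe sets. *EPHA2* moves from 9.13 to 11.45, *EFNB2* from 8.35 to 9.45 and *EFNA4* from 8.93 to 8.21. Heights of different genes are not comparable.

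The values by which the authors' deposited table had listed the genes were a SAM score, which divides the group difference by its spread plus a constant, and a p-value from the t-distribution. The authors' deposited table gave *EPHA2* a score of 3.01 and a p-value of 3.91e-05, *EFNB2* a score of 1.46 and a p-value of 0.000458, and *EFNA4* a score of -1.02 and a p-value of 0.00027. Listed scores started at 1.03 for higher and at -1 for lower probe sets in the authors' deposited table, so *EFNA4* stood just inside. The name of the authors' deposited table gives a p limit of 0.0001, yet its listed p-values reach 0.000999, and of the 3 genes *EPHA2* alone was listed below that limit. Its fold changes, ratios of means of unlogged signals in the authors' deposited table, were 5.02 for *EPHA2*, 2.14 for *EFNB2* and 0.605 for *EFNA4*. All 3 genes were also called in a limma fit over all probe sets (adjusted p under 0.05), as were 32.8% of the 22119. The groups were free of overlap for all 3 genes and for 46.5% of all probe sets. The authors' table itself held 2.25% of the probe sets, 1.37% as higher and 0.877% as lower. As the genes came from that table, nothing follows from these counts.

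The differences were unequal between the 3 genes, which can be read within each array and does not depend on a constant shift of an array. The log2 signal of *EPHA2* minus that of *EFNA4* was 0.02, 0.26 and 0.31 in control replicates 1, 2 and 3, and 3.13, 3.48 and 3.12 in M1 replicates 1, 2 and 3. The ratio of the 2 signals was displaced by 3.05, an 8.28-fold shift, and by 2.82 to 3.46 for any pairing of an M1 with a control array. As the authors had listed *EPHA2* as higher and *EFNA4* as lower, the direction of this displacement was set by the selection. The same holds for *EFNB2* against *EFNA4*. For *EFNB2* minus *EFNA4*, the 2 ligands, the displacement was 1.82, a 3.54-fold shift, from a control mean of -0.58 ± 0.16 to an M1 mean of 1.24 ± 0.06 (SD, n = 3 each). *EPHA2* exceeded *EFNB2* by 1.23 more with M1 protein than in control, and by 0.98 to 1.54 over single pairings of arrays. The absolute size of such a ratio has no meaning, since it compares different probes. Its displacement restates the differences given above, for genes that were selected on this contrast. The displacement is a description, and the amounts of receptor and ligand protein were not measured.

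Within groups the 3 genes varied little and not in step. M1 replicate 2 was the highest M1 array for *EPHA2*, 0.16 above its group mean, and the lowest for *EFNB2* and *EFNA4*, 0.08 and 0.07 below theirs. Control replicate 1 was the lowest control array for *EPHA2* and *EFNB2*, each 0.13 below its group mean, and the highest for *EFNA4*, 0.05 above it. No other deviation was larger than 0.12.

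The annotation of the array placed *EPHA2* on chromosome 1 from 16450832 to 16482582 on the minus strand, *EFNA4* on chromosome 1 from 155036207 to 155042029 on the plus strand, and *EFNB2* on chromosome 13 from 107142079 to 107187462 on the minus strand (build not named in the table). A probe set sums probes over the transcript, so isoforms are not separated. RefSeq lists a read-through gene of *EFNA4* and *EFNA3*, named *EFNA4-EFNA3*, and whether its transcripts add to the *EFNA4* signal was not tested. Nor was that of *EPHA2-AS1*, an antisense RNA gene that overlaps the start of *EPHA2* in RefSeq. *EFNA4* lies beside *EFNA3* and *EFNA1*, the genes of 2 further A-type ephrins, and *EPHA2* beside *ARHGEF19*, a guanine nucleotide exchange factor gene. Neighbours were the 10 protein-coding genes nearest to *EPHA2*, to *EFNB2* and to *EFNA4* in order of start, 5 on each side. Those of *EFNA4* included the read-through gene. Of these neighbours 0 were in the authors' table, which held 2.25% of all probe sets, so that count is no result about the neighbourhood.

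Names came with the probe sets of the authors' table alone, and the other genes of the ephrin system therefore have no value here. Of 14 Eph receptor genes, *EPHA2* was the 1 in the table. Of 8 ephrin genes, 2 were in it, 1 higher and 1 lower. The remaining 19 of the 22 genes, *EFNA1* and *EPHB4* among them, were not listed, which does not show that they were unchanged. Of 52 genes for signalling partners of Eph receptors and ephrins, 2 were listed, both higher, a share near the 2.25% of all probe sets that were listed, so the count is no result about these genes. The median log2 difference was 0.86 over the whole table and 0.00 over all probe sets.

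*ABL2* encodes a non-receptor tyrosine kinase of the ABL family that acts on the actin cytoskeleton. Its log2 signals were 9.23, 9.31 and 9.41 in control replicates 1, 2 and 3, and 11.54, 11.51 and 11.55 in M1 replicates 1, 2 and 3. With a difference of 2.22 ± 0.06 (SE) it ranked 45th among the higher probe sets of the table, where *EPHA2* was 37th. *GRB7* encodes an adaptor protein that docks on phosphorylated tyrosine kinases. Its log2 signals were 7.16, 7.28 and 7.19 in control replicates 1, 2 and 3, and 8.91, 8.78 and 8.70 in M1 replicates 1, 2 and 3, a difference of 1.58 ± 0.07 (SE). Neither gene's groups overlapped, as the authors' selection made likely, and nor did those of 46.5% of all probe sets. The list of partners was chosen with earlier results of these data known, so nothing follows from the nearness of the ranks of *ABL2* and *EPHA2*. Of 50 genes for the other guidance cues and their receptors, the semaphorins, plexins, neuropilins, slits, robos and netrins, 0 were in the table, which with 2.25% of all probe sets listed says nothing about them.

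**Figure D3:**
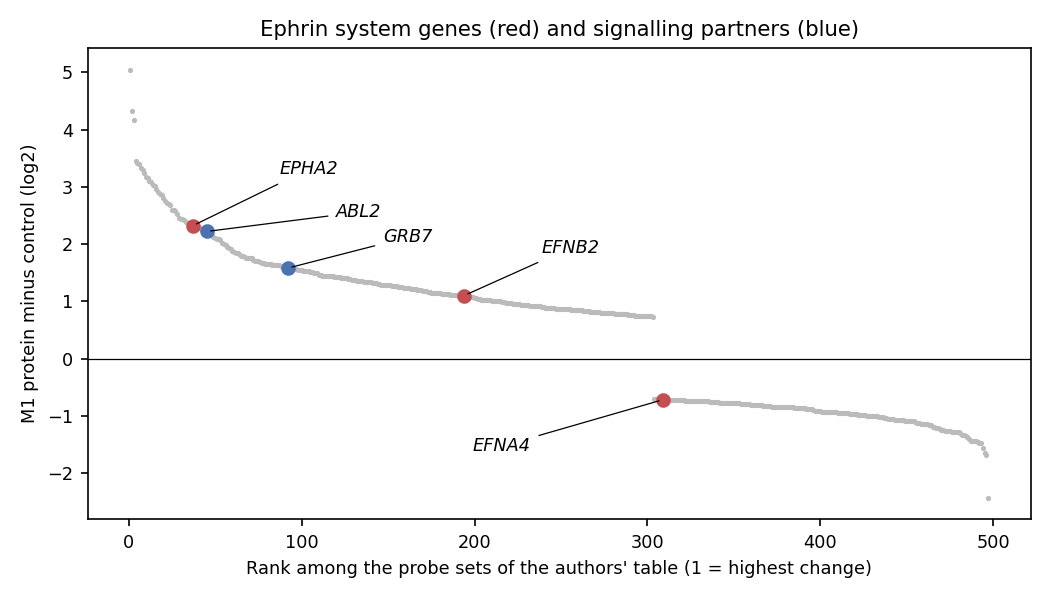
Log2 difference, M1 protein minus control, of the 497 probe sets of the authors' table in order of size, with the ephrin system genes in red and the 2 listed signalling partners in blue. *EPHA2* (2.32) and *ABL2* (2.22) both lie in the upper part, *GRB7* is at 1.58 and *EFNB2* at 1.10, and *EFNA4* (-0.72) is among the smallest of the lower ones; the gap around 0 is the authors' selection.

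The annotation terms that came with the authors' table group genes that had all been selected on the comparison of M1 protein with control. The directions of *EFNB2* and *EFNA4* within a term were therefore known beforehand. The terms were read after the values were known, and counts are over listed genes that carry the term; 400 listed probe sets carried a biological process term, 252 of them higher and 148 lower. The 2 ephrins shared 1 biological process term, cell-cell signaling, held by 16 genes of the table. Of these, 15 were higher and *EFNA4* was the 1 lower gene. *EFNB2*, at 1.10, had 1 of the smaller differences of the group, next to *KLF10* at 1.10 ± 0.06 (SE), a transcription factor gene, and the growth factor gene *FGF18* at 1.00 ± 0.09 (SE). The largest were those of the chemokine gene *CCL20*, at 4.33 ± 0.15 (SE), the secreted glycoprotein gene *STC1*, at 3.17 ± 0.08 (SE), and *BMP2*, a bone morphogenetic protein gene, at 2.72 ± 0.08 (SE). Most of the 16 encode secreted signals, whereas the ephrins act on the cell surface.

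**Figure D4:**
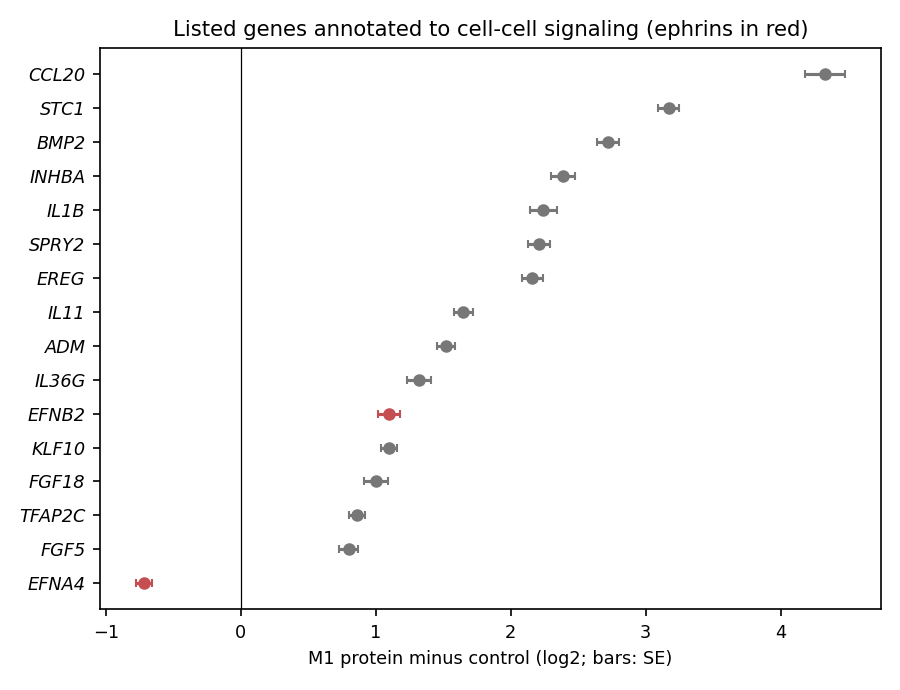
Log2 difference, M1 protein minus control, with SE, of the 16 genes of the authors' table annotated to cell-cell signaling. The ephrins are in red: *EFNB2* at 1.10 is higher with M1 protein, and *EFNA4* at -0.72 is the 1 gene to the left of 0.

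*EPHA2* and *EFNB2* shared the term multicellular organismal development, with 24 higher and 7 lower of 31 genes. *EFNB2* was 1 of 12 listed genes of nervous system development, of which 11 were higher, and *EPHA2* was 1 of 5 of neuron differentiation, of which 4 were higher. Further process terms of *EPHA2* were signal transduction, with 36 higher and 4 lower genes, apoptosis, with 28 and 4, and protein phosphorylation, with 13 and 2. Of its molecular function terms, receptor activity had 10 higher and 8 lower genes, ATP binding 23 and 21, and nucleotide binding 27 and 22. Transferase activity had 20 and 13, and protein binding 145 and 74. Of the 411 listed probe sets with a molecular function term, 258 were higher and 153 lower. *EPHA2* was the 1 listed gene with the term ephrin receptor signaling pathway. All 3 genes were annotated as integral to the plasma membrane, as were 20 listed genes in all, 16 higher and 4 lower. Of the 418 listed probe sets with a cellular component term, 254 were higher and 164 lower. For *EFNA4* the plasma membrane term stands beside the term anchored to membrane, which 3 listed genes held.

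The listed genes with the profile nearest to each of the 3 were found by the root mean square difference over the 6 arrays, after the mean of each gene was subtracted. For *EPHA2* they were *ZC3H12C*, a CCCH zinc finger gene, at a distance of 0.0382, *KDM6B*, which encodes a histone demethylase, at 0.0789, and *KDM7A*, another histone demethylase gene, at 0.0874. For *EFNB2* they were the kinase gene *RPS6KA5* at 0.0453, the zinc transporter gene *SLC30A1* at 0.0544 and the growth factor gene *FGF2* at 0.058. For *EFNA4* they were *STEAP2*, a metalloreductase gene, at 0.0217, *LRRCC1*, a centrosome gene, at 0.0266 and *R3HCC1* at 0.0275. These distances lie within the largest replicate SD of *EPHA2*, *EFNB2* and *EFNA4* themselves, and with 6 arrays in 2 groups they reflect mainly a like size of the group difference. By Pearson correlation in place of distance, *ZC3H12C* alone of these 9 stayed among the nearest 3.

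**Figure D5:**
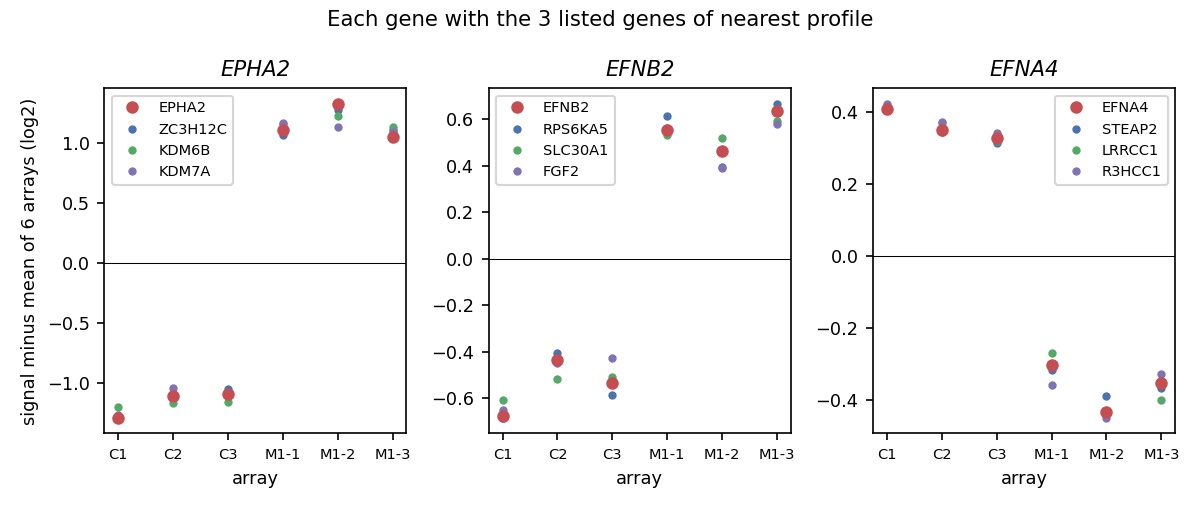
Log2 signal minus the gene's mean over the 6 arrays, for each of the 3 genes (red, large) and the 3 listed genes with the nearest profile (small points), on control arrays C1 to C3 and M1 arrays M1-1 to M1-3. On every array the points lie close together, with root mean square distances of 0.0382 to 0.0874 for *EPHA2*, 0.0453 to 0.058 for *EFNB2* and 0.0217 to 0.0275 for *EFNA4*.

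Facts of the whole series that bear on these values are few. The median log2 signal was 6.99 to 7.01 on control arrays and 6.93 to 6.96 on M1 arrays, and every value of the 3 genes lay above the 25th percentile of its array (5.71 to 5.79). Of 10 keratinocyte markers 2 were named, and both had signal in every sample: *LAMB3*, a laminin chain of the basement membrane, with means of 11.81 ± 0.05 on the control arrays and 12.56 ± 0.03 on the M1 arrays (SD, n = 3 each), and *KRT17*, a keratin of stressed epidermis, with means of 8.12 ± 0.08 and 9.23 ± 0.11 (SD, n = 3 each). Of the markers of endothelium (6), melanocytes (4), fibroblasts (6) and leukocytes (5), 0 were in the table, so their levels have no value here. The labels name HaCaT cells alone for every sample, and the presence of other cell types was not tested.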

How the data were processed

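RNA of 3 control and 3 M1-treated HaCaT samples was measured on Affymetrix Human 2.0 ST arrays. The values deposited by the authors are log2 signals; the submitters' processing notes name RMA and version 1.1.2 of Affymetrix Expression Console. RMA compresses dim signals, so fold changes of dim genes are understated. Per the file headers, the authors' table adds for each probe set a score from SAM, a fold change (mean unlogged M1 signal over mean unlogged control signal) and a t-test p-value with an alpha of 0.01. The number of arrays limits the precision.

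Columns were mapped by sample title. Symbols were updated by accession to RefSeq (GRCh38.p14), where 476 of 497 matched. Each probe set was fitted with limma 3.58.1 in R 4.3.3, M1 against control, no filter, Benjamini-Hochberg over 22119 probe sets. The fit was also run on simulated data, whose outcome is not given here. The simulated noise was independent between arrays and probe sets, so that run could not test a shift of a whole array. SE values come from the limma fit of the measured data. The genes and lists were chosen with earlier results of these data known. Genes named are the 3 genes, list members in the table and the 3 nearest profiles of each; genes named under annotation terms were added after their values were seen. Alternatives were quantile normalization, median centring, the replicate number as a block, a filter on dim probe sets, other variance priors, an equal-variance t-test, a 1.5-fold limit, ratios of unlogged means and each sample left out.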

Additional observations from a re-analysis of the deposited data

How the results depend on the processing

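The direction of the 3 genes held in all 11 alternatives run on each, which the lack of overlap between groups largely assured. The difference of *EPHA2* ranged from 2.24 to 2.39 and that of *EFNB2* from 1.03 to 1.20, less than 1 replicate SD from the values reported. That of *EFNA4* ranged from -0.75 to -0.69 with a sample left out. It moved by more than 1 replicate SD (0.06) to -0.61 with quantile normalization and to -0.66 with each array centred on its median. Centring adds the same amount to every difference, as the medians were lower on M1 arrays. It took *EPHA2* to 2.39 and *EFNB2* to 1.16, where the replicate SDs were larger, 0.13 and 0.11. Why quantile normalization moved *EFNA4* was not tested. The count of called probe sets, 7245 as reported, was 2088 with a 1.5-fold limit added, fewer by construction, and 714 by the methods' t-test at an unadjusted p under 0.0001 (6024 with Benjamini-Hochberg). *EFNB2* did not pass that limit and the other two did; all 3 passed with Benjamini-Hochberg. Of the called probe sets 35.3% were higher as deposited and 49.4% after median centring. Without each sample in turn 5386 to 6763 were called. With a replicate block in the fit 5821 were called, and the calls of the 3 genes were as before. Deviations of same-numbered samples correlated at -0.1233, -0.1176 and -0.001081 and those of differently numbered ones at up to 0.1284, which gives no sign that the numbers pair the samples and does not show that they share nothing. The table names only selected probe sets, which limits every statement on the rest of the ephrin system.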

Other observations

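Blood vessel terms in the annotation of the authors' table formed another group around the receptor, looked at after the values were seen. *EPHA2* was 1 of 6 listed genes of vasculogenesis, of which 5 were higher with M1 protein and *AGGF1*, an angiogenic factor gene, was lower at -1.26 ± 0.07 (SE) on the log2 scale. The other higher genes were *VEGFA*, which encodes the main endothelial growth factor (1.88 ± 0.06 SE), the RNA-binding protein gene *ZFP36L1* (1.44 ± 0.07 SE), *TIPARP* (1.33 ± 0.05 SE) and the AP-1 gene *JUNB* (1.23 ± 0.05 SE). It was also 1 of 2 listed genes of blood vessel development, with the transcription factor gene *TBX3* (0.82 ± 0.07 SE), and 1 of 2 of regulation of angiogenesis, with *FGF2* (1.02 ± 0.09 SE). *EFNB2* was the 1 listed gene of lymph vessel development. These counts are a description of a table in which 303 of 497 probe sets were higher.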
